A study of Mus musculus with 9 samples.

Results

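The genes described here encode the proteins of the cytosolic ribosome, the particle that translates messenger RNA into protein. They were chosen by name, as the rows of the deposited table whose Ensembl identifier carries a mouse symbol that begins with Rpl (large subunit) or Rps (small subunit), without the Rps6k kinases and without symbols that contain -ps, which mark pseudogenes. Of 54307 rows, 93 fitted this rule, and the 86 with an FPKM (fragments mapped to a gene, divided by its transcript length and by the size of the library) of 1 or more in 3 or more of the 9 libraries were kept. None of the 86 passed through a single group. The 7 rows below that level were Rpl3l, Rpl39l, Rpl10l, Rpl6l, Rpl32l, Rps4l and Rps12l1. The 86 comprised 46 large-subunit genes, 31 small-subunit genes, 8 paralogs or retrocopies (Rpl22l1, Rpl36al, Rpl7l1, Rpl37rt, Rps27l, Rps27rt, Rps3a2 and Rps3a3) and Rps19bp1, which codes for a protein that binds a ribosomal protein and is no subunit itself.

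RNA sequencing was run on C2C12 cells, an established line of mouse myoblasts that can fuse into myotubes, so all groups are the same line. The NC group was the control, for which the labels give no glucose concentration. The H group received 25 mmol/L glucose, and the HL group received 25 mmol/L glucose with 200 nmol/L liraglutide, an acylated analogue of the gut hormone GLP-1. All groups were sampled at 48 h with 3 libraries each, and no osmotic control was among the libraries. The question was how high glucose changed the transcripts of these cells and what liraglutide changed on top of it. The methods speak of independent biological repeats in general, but neither they nor the labels say for the sequenced libraries that each was a separate culture. If they were not, a p-value here sets a difference against technical spread alone.

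Ribosomal proteins are made in near-equal numbers, assembled with ribosomal RNA in the nucleolus and exported as subunits. Their messenger RNAs are among the most abundant of a growing cell, and many begin with a run of pyrimidines, the terminal oligopyrimidine (TOP) tract, through which the mTORC1 pathway and its RNA-binding protein LARP1 adjust their translation and stability to nutrients. In muscle, the number of ribosomes is a known limit on protein synthesis during growth. Mammalian genomes also hold many intronless copies of these genes, and reads from a gene and from such a copy can be hard to tell apart.

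That last point bears on every value below, so 3 pairs of a gene and an expressed copy are shown first. Each pair is a stretch of 40 bases of the coding sequence from the GENCODE M21 transcripts (GRCm38), read 5′ to 3′ on the coding strand, and capitals mark the bases at which the pair differs.
Rps18, chromosome 17, coding bases 334 to 373: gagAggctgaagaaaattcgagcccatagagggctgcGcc
Gm10260, chromosome 13: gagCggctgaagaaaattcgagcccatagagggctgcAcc
Rps7, chromosome 12, coding bases 17 to 56: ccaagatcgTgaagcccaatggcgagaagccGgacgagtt
Gm6472, chromosome X: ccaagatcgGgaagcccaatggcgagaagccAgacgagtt
Rps3a1, chromosome 3, coding bases 636 to 675: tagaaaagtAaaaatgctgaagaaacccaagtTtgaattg
Rps3a2, chromosome 14: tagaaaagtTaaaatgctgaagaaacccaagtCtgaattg
The stretches hold 2 of the 4 differences between Rps18 and Gm10260 over 456 coding bases, 2 of the 3 between Rps7 and Gm6472 over 582, and 2 of the 4 between Rps3a1 and Rps3a2 over 792. A read within the coding sequence that covers none of the differing bases matches both coding sequences equally well. The untranslated ends were not compared.

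The second kind of sequence is the start of the gene, where the TOP tract lies. Starts were found for 57 of the 77 subunit genes in RefSeq (GRCm38.p6). The windows below run from 30 bases before the annotated start to 20 bases after it, and capitals mark the tract, defined as a C at the first transcribed base followed by at least 4 bases that are C or T, on the strand of the gene only.
Rps6, chr4:86857348-86857397, minus strand: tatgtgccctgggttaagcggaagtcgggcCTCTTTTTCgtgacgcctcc
Rpl35, chr2:39005112-39005161, minus strand: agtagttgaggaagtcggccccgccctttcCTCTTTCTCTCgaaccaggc
Rpl15, chr14:18270967-18271016, minus strand: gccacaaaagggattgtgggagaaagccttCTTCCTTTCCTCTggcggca
Rps10, chr17:27635225-27635274, minus strand: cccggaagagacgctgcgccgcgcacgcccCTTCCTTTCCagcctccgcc
Such a tract stood at an annotated start of 13 of the 57 genes (22.8%), against 3.01% of the 27025 genes in that table. A run of 8 or more pyrimidines within 10 bases of a start was present at 27 of the 57 (47.4%), against 15.8% of all genes. The match is a description of annotated starts, and the starts used in these cells were not measured.

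Across the 9 libraries the 86 genes together made up between 10.06% and 14.64% of all FPKM. Their share was 14.63%, 14.64% and 14.44% in the NC libraries, 10.06%, 10.99% and 11.02% in the H libraries, and 12.05%, 11.78% and 12.34% in the HL libraries. Every NC library was above every HL library, and every HL library was above every H library. The means were 14.6% ± 0.114 (SD, n = 3) in NC, 10.7% ± 0.543 in H and 12.1% ± 0.276 in HL. The same order held for the large subunit, with 8.21%, 6.08% and 6.72%, and for the small subunit, with 5.58%, 4.07% and 4.73% in NC, H and HL. A share does not depend on how a library was scaled, and as it sums over the genes it was given no test. In bulk RNA a lower share can come from fewer of these transcripts per cell, from more of the other transcripts in the total, or from a different mix of cells. These cannot be told apart here.

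**Figure D1:**
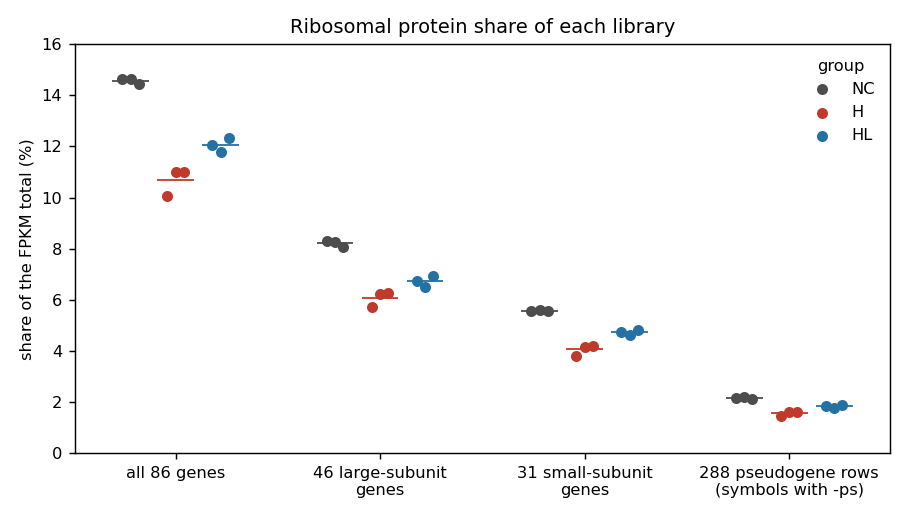
Share of each library's FPKM total (percent, vertical axis) held by the 86 genes, by the large-subunit and small-subunit genes, and by the 288 rows with pseudogene symbols. Each point is a library and each line a group mean; in every column the 3 NC libraries lie highest, the 3 HL libraries between and the 3 H libraries lowest.

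The libraries themselves differed in several facts that stand beside these results. Depth is not recorded in FPKM, and an estimate from the spacing of the lowest values gave 18600000 to 18750000 fragments for NC libraries, 17000000 to 20300000 for H libraries and 15550000 to 19150000 for HL libraries. The FPKM total ranged from 757000 to 765681 in NC, from 649733 to 683362 in H and from 698627 to 731929 in HL. Mitochondrially encoded transcripts took up from 6.48% to 7.28% of it in NC, from 7.24% to 9.47% in H and from 9.19% to 11.4% in HL. The summed FPKM of 10 myoblast markers ranged from 508 to 521 in NC, from 356 to 516 in H and from 750 to 775 in HL. The sum of 10 macrophage markers ranged from 33.1 to 34.7 in NC, from 171 to 248 in H and from 49.8 to 52.8 in HL, but only 3 of the 10 passed the filter, Tyrobp was at 0 in every library, and Ptprc and Adgre1 did not exceed 0.0219 and 0.0594 FPKM. The endothelial, adipocyte and epithelial lists each had 1 gene past the filter. The part of these differences in the results was not tested.

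For high glucose against control, 78 of the 86 genes fell and 1, Rps2, rose at an adjusted p under 0.05 (limma on log2(FPKM + 0.1), Benjamini-Hochberg over all 13674 tested genes). By the same rule 33.0% of all tested genes fell and 27.1% rose. The median log2 fold change of the 86 genes was −0.64, with quartiles of −0.73 and −0.53, beside −0.04 over all tested genes. In the large subunit 43 of 46 genes fell, with a median of −0.64, and in the small subunit 28 of 31 fell, with a median of −0.66; the difference between the subunits was not tested. In 79 of the 86 genes all 3 NC libraries were above all 3 H libraries, and in 3 all H libraries were above all NC libraries, where 35.7% and 29.7% of all tested genes were separated in those directions. The size was moderate, for with the further threshold of the study, a log2 fold change beyond 1 in either direction, 1 of the 86 genes fell and none rose, against 5.75% and 10.3% of all tested genes.

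**Figure D2:**
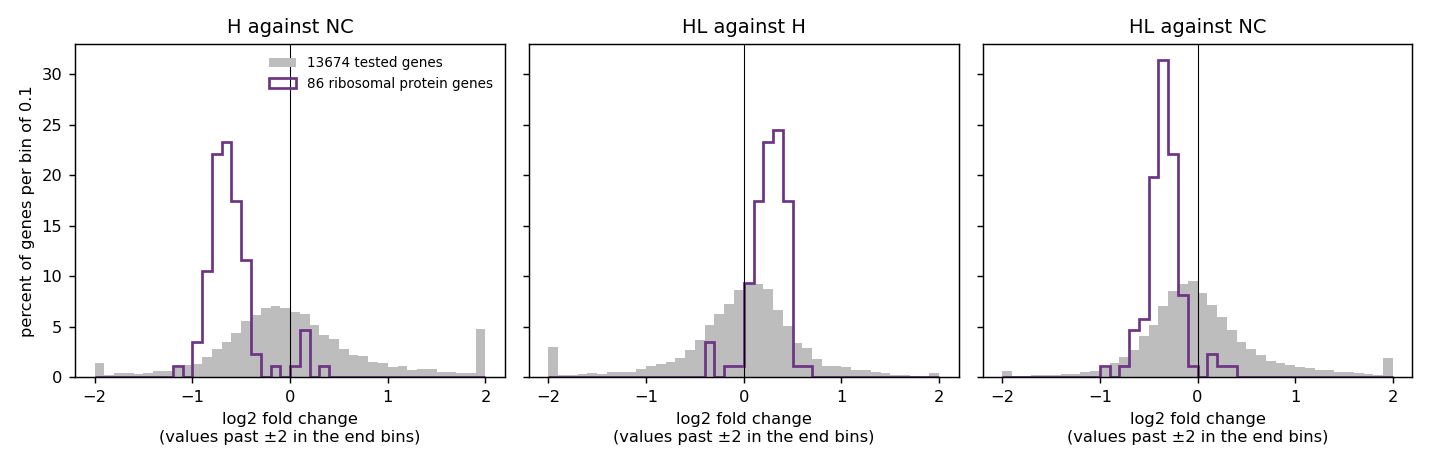
Percent of genes (vertical axis) in bins of 0.1 of the log2 fold change (horizontal axis) for the 3 comparisons, with all 13674 tested genes in grey and the 86 ribosomal protein genes as a line. The ribosomal protein genes form a narrow peak below 0 in H against NC (median −0.64), above 0 in HL against H (0.27) and below 0 in HL against NC (−0.34).

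The acidic stalk of the large subunit, which recruits elongation factors, held the gene with the second highest own row, or the third highest level with copies summed, after Rps2 and Rpl23a. Rplp1 was at 3963, 3804 and 4011 FPKM in NC, 1988, 2218 and 2099 in H, and 2643, 2614 and 2731 in HL. No groups overlapped, and H was lowest. Its log2 fold change was −0.90 ± 0.048 (SE) in H against NC, with an adjusted p of 6.95e-07. Its partner Rplp2 fell by 0.63 and Rplp0, the base of the stalk, fell by 0.57 on the log2 scale, so the 3 stalk genes fell together but Rplp1 by more.

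Among the remaining large-subunit genes the widest falls were those of Rpl36, Rpl36a and Rpl41. Rpl36 was at 1697, 1554 and 1602 FPKM in NC, 811, 864 and 902 in H, and 1047, 1102 and 1112 in HL. All H libraries were lowest, with a log2 fold change of −0.91 ± 0.054 and an adjusted p of 1.17e-06. Rpl41, which codes for the shortest protein of the ribosome, was at 3073, 3039 and 2929 FPKM in NC, 1662, 1506 and 1715 in H, and 1862, 1748 and 2012 in HL. It fell by 0.89 in H against NC. Rpl23a (−0.45) and Rpl7a (−0.46) were among the genes of this subunit that fell least.

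In the small subunit Rpsa fell furthest. Rpsa codes for the protein of the ribosome that is also known as the laminin receptor, and it was at 1865, 1768 and 1776 FPKM in NC, 918, 1050 and 975 in H, and 1081, 1073 and 1137 in HL. All H libraries were lowest, with a log2 fold change of −0.88 ± 0.055 and an adjusted p of 1.58e-06. Rps6, the protein that the S6 kinases phosphorylate, was at 1762, 1771 and 1691 FPKM in NC, 1289, 1269 and 1359 in H, and 1503, 1549 and 1557 in HL. It fell by 0.42 ± 0.042, less than Rpsa, though the 3 groups did not overlap. Rps3, a protein at the entry of the messenger RNA channel that also acts in DNA repair, fell by 0.62, and Rps19, which is mutated in Diamond-Blackfan anemia, fell by 0.45.

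Rpl5 and Rpl11 form a particle with 5S ribosomal RNA that can bind MDM2 when assembly fails. Rpl11 was at 1073, 1050 and 1071 FPKM in NC, 643, 651 and 674 in H, and 796, 803 and 836 in HL. Its libraries separated fully in the order NC, HL, H, and it fell by 0.70 ± 0.040 in H against NC. Rpl5 by its own row stood at 40.3, 41.2 and 41.0 FPKM in NC, 44.6, 43.8 and 43.5 in H, and 44.3, 44.8 and 47.0 in HL, far below its partner. That row carries only a small part of its family, as described below. Of the 4 tested genes of the p53 response on the list for this particle, Mdm2 rose by 1.02 (adjusted p = 3.16e-07) and Cdkn1a by 1.24 (1.95e-07) in H against NC, Trp53 itself fell by 0.66 (0.000343) and Mdm4 was not called.

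In H against NC, 7 of the 86 genes were not called in either direction (Rps18, Rpl7l1, Rps19bp1, Rpl5, Rps27, Rpl12 and Rpl10). With Rps2 these are the 8 that were not called lower. Of the 8, Rps18 (−0.35) and Rpl7l1 (−0.12) were below 0 and the other 6 above it. In Rps18 all NC libraries were above all H libraries. Rps2 was at 41.0, 40.9 and 37.8 FPKM in NC, 55.5, 52.2 and 48.7 in H, and 43.2, 54.1 and 46.4 in HL, so all H libraries lay above all NC libraries. Its log2 fold change was 0.38 ± 0.087 (adjusted p = 0.00403). Rpl12 was at 79.3, 73.0 and 77.2 FPKM in NC, 85.3, 80.4 and 86.7 in H, and 65.7, 72.9 and 63.2 in HL. Both rows were far below most other subunit genes.

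**Figure D3:**
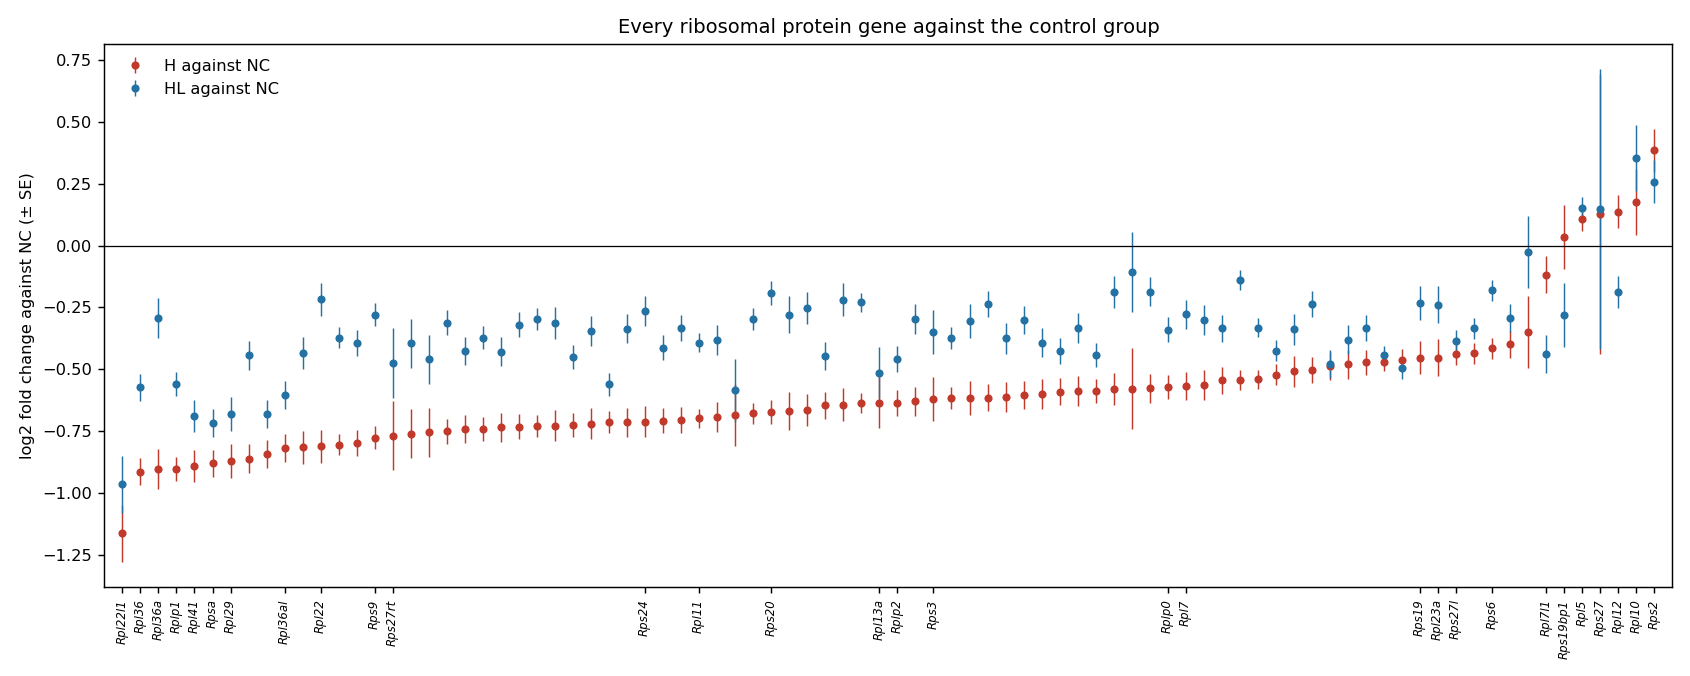
Log2 fold change against NC (vertical axis, ± SE of the fit) of each of the 86 genes, ordered by the value in H against NC (red), with HL against NC in blue and names for the genes chosen by rule. Most red points lie between −0.9 and −0.4 with the blue point above them; the points above 0 at the right are Rps19bp1, Rpl5, Rps27, Rpl12, Rpl10 and Rps2.

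Near-identical copies were therefore counted for each subunit gene. A copy was another GENCODE M21 gene with at least 95% identity over at least 80% of the coding sequence. Of the 77 subunit genes, 74 had 561 copies in all, of which 545 had a single exon. Rpl21 had the most, 56. In these libraries 72 copies had a mean of at least 1 FPKM, and for 17 genes the copies held more than 50% of the family's FPKM.

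For Rps2 the copies held 98.8% of the family. Rps2-ps10, a single-exon copy with 99.4% identity, was at 4993, 4742 and 4834 FPKM in NC, 3165, 2686 and 3007 in H, and 3504, 3496 and 3600 in HL. The copy fell by 0.72 ± 0.059 in H against NC (adjusted p = 7.45e-06) while the row of Rps2 rose. Summed, the family fell by 0.71 ± 0.058. Rpl12 behaved alike: its copy Gm10275, identical over the coding sequence, was at 2789, 2722 and 2813 FPKM in NC, 1382, 1638 and 1443 in H, and 1877, 1981 and 1930 in HL. With copies summed, Rpl12 fell by 0.86 ± 0.058.

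The same held for the others among the 5 subunit genes above 0. Rpl5 fell by 0.46 with its copy Gm15500, which is identical over the coding sequence and was at 1272, 1270 and 1291 FPKM in NC against 865, 987 and 887 in H. Rpl10, a late-joining protein of the large subunit that helps shape the site of peptide bond formation, fell by 0.20 ± 0.068 when summed with Rpl10-ps3, the smallest fall of any summed gene. Rps27 fell by 0.75 ± 0.130 once summed with Rps27rt. The row of Rps27 alone was at 14.0, 27.7 and 37.2 FPKM in NC, 29.0, 19.8 and 32.6 in H, and 55.4, 11.7 and 30.3 in HL, the widest spread of any of the 86 genes. In the second HL library, where Rps27 was lowest, Rps27rt was at 1697 FPKM, above the 1213 and 1262 of the other HL libraries.

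With all copies summed, 77 of 77 subunit genes fell in H against NC, between −0.91 and −0.20, and 33.0% of the 13584 genes tested in that fit fell. The SD of the log2 fold change over these genes was 0.140 on sums and 0.247 on own rows. In the 53 genes with at most 10% of the family on copies the median was −0.65, with a range from −0.91 to −0.42. Of the 86 tested copies that are not among the genes described here, 37 fell and 2 rose, with a median of −0.65, where 33.0% of all tested genes fell and 27.1% rose. How the reads were shared out between a gene and its copies is not given in the sources used here, so the level of an own row with many copies is uncertain.

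**Figure D4:**
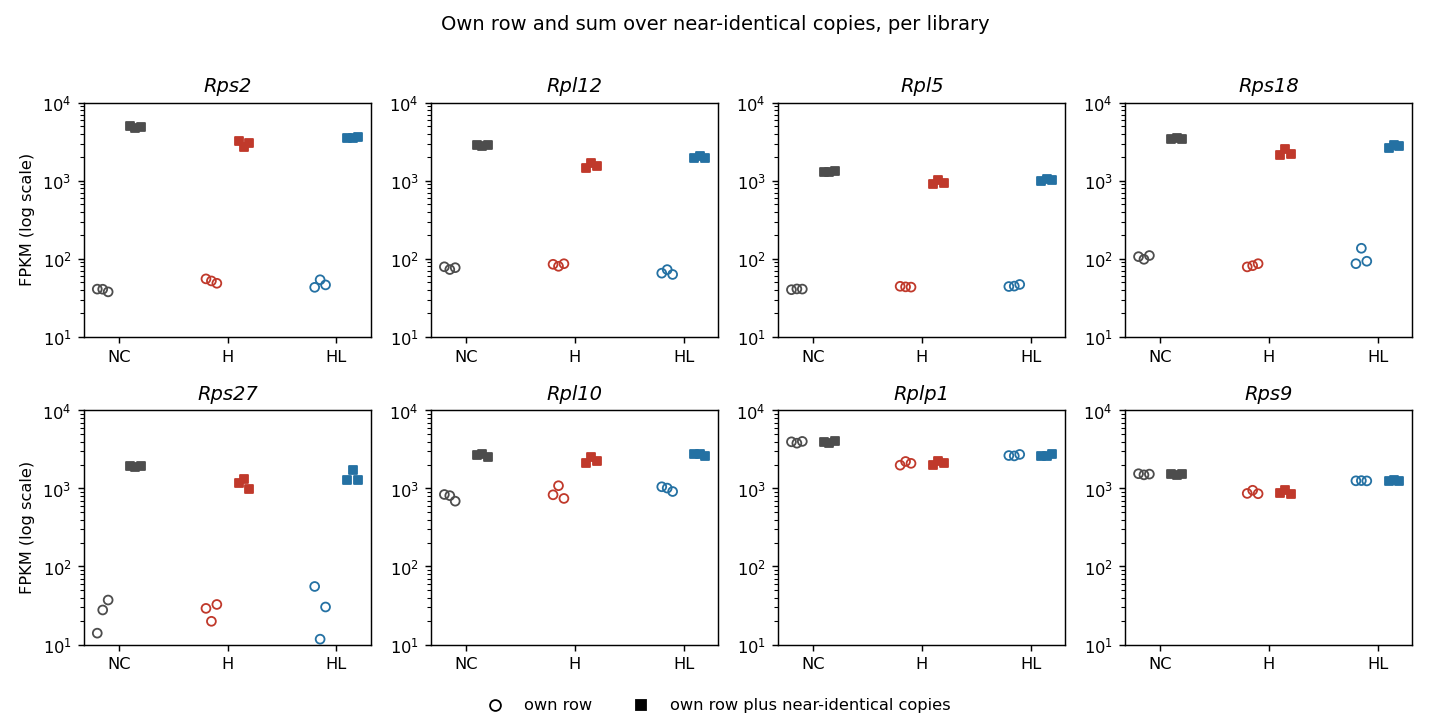
FPKM per library (log axis) of 8 subunit genes by the own row (open circles) and summed with near-identical copies (squares). For Rps2, Rpl12, Rpl5, Rps18 and Rps27 the own row lies more than 10 times below the sum and falls less than the sum from NC to H or does not fall; for Rplp1 and Rps9, which have few reads on copies, circles and squares coincide.

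When liraglutide was added to high glucose, 65 of the 86 genes rose and 2 fell against H, beside 26.7% and 21.7% of all tested genes. The median log2 fold change was 0.27, against 0.04 over all tested genes. The fit used a common spread for all groups. The median SD of log2 values over tested genes was 0.17 in H, 0.072 in NC and 0.087 in HL. With variance weights per group 55 rose and 2 fell, beside 3059 and 2394 of the 13674 tested genes. With only the 2 groups compared in the fit 51 rose and 2 fell, beside 3006 and 2527. In 65 genes all HL libraries were above all H libraries and in 2 all were below, against 30.4% and 24.9% of all tested genes. No gene passed the fold threshold of the study in either direction, where 3.55% of all tested genes rose and 5.83% fell. Both comparisons share the 3 H libraries, so the rise here and the fall against NC are not independent of each other.

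The rise was uneven. Rpl36a was at 1275, 1207 and 1203 FPKM in NC, 600, 717 and 656 in H, and 953, 1117 and 946 in HL, and rose by 0.61 ± 0.081 (adjusted p = 0.000297). Rpl22, a protein of the large subunit that also binds viral and cellular RNAs, was at 1152, 1154 and 1176 FPKM in NC, 590, 719 and 682 in H, and 996, 985 and 1016 in HL. It rose by 0.59 ± 0.066 (adjusted p = 0.000117). No groups overlapped in either gene. Against NC, Rpl22 was at −0.22 and Rpl36a at −0.29 in HL, and Rpl36a was not called there with copies summed (limma adjusted p = 0.0727).

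Rps9 and Rps20, of the small subunit, rose next most. Rps9 was at 1546, 1495 and 1528 FPKM in NC, 864, 949 and 857 in H, and 1254, 1261 and 1250 in HL. It rose by 0.50 ± 0.047 with an adjusted p of 4.50e-05. Rps20 rose by 0.48 ± 0.049 and lay 0.19 below control. By subunit, 35 of 46 large-subunit and 26 of 31 small-subunit genes rose, with medians of 0.24 and 0.31; the difference between the subunits was not tested.

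At the other end, Rpl6, Rpl7a and Rpl15 remained near H. Rpl7a was at 1329, 1298 and 1267 FPKM in NC, 947, 945 and 935 in H, and 875, 961 and 925 in HL. The HL libraries spread around the H libraries, with a log2 fold change of −0.03 ± 0.044. Rpl6 was at 1321, 1295 and 1301 FPKM in NC, 951, 956 and 921 in H, and 947, 974 and 964 in HL, a change of 0.03 ± 0.036 that did not pass the test. These 3 genes were chosen after their values were seen.

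The 2 genes that fell in HL against H were Rpl12 (−0.32 ± 0.065), which rose by 0.35 with copies summed, and Rpl7l1 (−0.32 ± 0.075). Summed over copies, 67 of the 77 subunit genes rose and none fell at an adjusted p under 0.05 by limma, beside 26.8% and 21.9% of the genes in that fit.

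Rescaling mattered for this comparison. When each library was rescaled to TPM, which sets all libraries to the same total, the median over all tested genes moved from −0.04 to 0.15 in H against NC, from 0.04 to −0.06 in HL against H and from −0.04 to 0.05 in HL against NC. Relative to that median the 86 genes lay at −0.59, 0.23 and −0.30 or −0.29 with either scaling. In counts, TPM left 77 of the 86 genes lower and 4 higher in H against NC, where it called 20.9% of all tested genes lower and 38.6% higher. In HL against H it left 40 higher and 5 lower, beside 18.4% and 27.6% of all tested genes, and in HL against NC 61 lower and 3 higher, beside 19.4% and 27.0%.

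Compared directly with control, 79 of the 86 genes were still lower in HL and 2 (Rpl5 and Rps2) were higher, against 27.2% and 21.6% of all tested genes. The median log2 fold change was −0.34, beside −0.04 for all tested genes. All HL libraries were below all NC libraries for 80 genes and above them for 3, where 36.3% and 29.5% of all tested genes were so separated. No gene passed the fold threshold of the study, against 2.41% lower and 6.30% higher of all tested genes. The group means followed the order NC, HL, H in 77 of the 86 genes, and in 64 no library broke it.

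Rpsa remained furthest below control among the subunits, at −0.72 ± 0.055 (adjusted p = 1.98e-05), followed by Rpl41 at −0.69, Rpl29 at −0.68 and Rpl35 at −0.68. Rpl22l1 was lower still at −0.97. By own rows, Rpl37 (−0.14 ± 0.041, adjusted p = 0.0183), Rpl5 (0.15), Rps6 (−0.18), Rpl12, Rpl23, Rps20 and Rpl28 (−0.19 each) were nearest to control among the genes that passed the test. With copies summed, Rpl5 and Rpl12 were at −0.36 and −0.51, and Rpl37, Rps20 and Rpl28 were no longer called (limma adjusted p = 0.0685, 0.123 and 0.0745). Rps6 (−0.18) and Rpl23 (−0.19) were then nearest among the genes called. The call of Rpl5 and Rps2 as higher depended on the own rows, for with copies summed none of the 77 subunit genes was higher in HL than in NC and 72 were lower, beside 21.8% and 27.2% of the genes in that fit. Neither call held when NC replicate 1, 2 or 3 or HL replicate 2 or 3 was left out, where 0 genes were higher. In that comparison the summed Rpl10 was the only subunit gene above 0, at 0.04 ± 0.068.

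Paralogs, some of which can take the place of a subunit or arise by copying its gene, did not all follow their parents. The make-up of the ribosomes was not measured. Rpl22l1, the paralog of Rpl22, was at 736, 740 and 746 FPKM in NC, 286, 411 and 308 in H, and 378, 361 and 400 in HL, and it is the only gene of the 86 that passed the fold threshold of the study in H against NC (−1.16 ± 0.115, adjusted p = 2.57e-05). In HL against H its change of 0.20 ± 0.115 did not pass the test, while Rpl22 rose by 0.59. The log2 ratio of Rpl22l1 to Rpl22 was −0.65 ± 0.0077 (SD, n = 3) in NC, −1.001 ± 0.177 in H and −1.40 ± 0.0524 in HL, lower in each step. An exact two-sided permutation test of each step gave p = 0.1, the smallest that 3 against 3 libraries allow, and 0.188 after adjustment over 15 ratios and comparisons.

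Rpl7l1, a paralog of Rpl7, was at 97.2, 99.5 and 97.9 FPKM in NC, 97.5, 79.4 and 95.6 in H, and 72.2, 74.5 and 70.6 in HL. It was not called in H against NC, where Rpl7 fell, and it fell in HL against H, where Rpl7 rose. Its log2 ratio to Rpl7 was −3.77 in NC, −3.32 in H and −3.93 in HL. Rpl36al against Rpl36a was −1.24 in NC, −1.16 in H and −1.55 in HL. For these ratios, too, the exact permutation p was 0.1, or 0.2 for Rpl36al in H against NC. Rps27l, a paralog of Rps27 that p53 is known to induce, was at 657, 671 and 694 FPKM in NC, 482, 499 and 512 in H, and 501, 532 and 515 in HL, so it fell by 0.44 in H and did not pass the test in HL against H. Its ratio to the variable row of Rps27 gave exact permutation p-values of 0.3 to 0.9.

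The retrocopy Rps27rt fell by 0.77 in H against NC, where the row of Rps27 was not called. Rpl37rt fell by 0.58 there, beside 0.54 for Rpl37. The retrocopies Rps3a2 and Rps3a3 fell about as far as the row of their parent Rps3a1. Reads of such near-identical rows can be hard to tell apart, so these values may not be independent. Rps3a2 was at 1104, 1143 and 1127 FPKM in NC, 663, 765 and 758 in H, and 907, 949 and 892 in HL, above its parent Rps3a1 with 466, 424 and 435, then 265, 312 and 289, then 368, 336 and 369. The log2 fold changes in H against NC were −0.63 for Rps3a2, −0.60 for Rps3a3 and −0.62 for Rps3a1. Rps19bp1 was at 69.0, 67.7 and 63.8 FPKM in NC, 80.3, 53.6 and 74.2 in H, and 54.5, 52.6 and 57.9 in HL, and it passed the test in none of the comparisons.

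Subunit genes with and without the pyrimidine tract, as defined above at the annotated start, had similar medians, a comparison that was not tested. Genes counted as without it include some with long pyrimidine runs within 10 bases of a start, such as Rpl7a (21 bases) and Rpl27a (20). The split therefore cannot separate TOP messenger RNAs from others. In H against NC the 13 subunit genes with a tract at an annotated start had a median log2 fold change of −0.61 and the 44 matched genes without one −0.65. Among genes that are not ribosomal protein genes, the median was −0.03 for the 289 with such a tract and −0.06 for the 9377 without it. Rps6, Rpl15, Rps10 and Rpl35, whose tracts are printed above, changed by −0.42, −0.49, −0.47 and −0.84. The 86 genes have short transcripts, with a median of 630 bases against 1291 over all tested genes. The 4670 other genes with median transcripts of 500 to 1000 bases had a median change of −0.09, and the part of length in the result was not tested. The 124 other genes with a mean of at least 500 FPKM that are no copies had a median of −0.19, with 63 lower and 21 higher, against 33.0% and 27.1% of all tested genes.

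Other parts of the translation machinery were read from lists. Fau, whose product is cut to release a ribosomal protein, and Rack1, a scaffold bound to the small subunit, fell in H against NC by 0.43 and 0.38, and Rack1 rose in HL against H (0.15). Of 46 initiation factors 29 fell (63.0%, against 33.0% of all tested genes) and 4 rose (8.70%, against 27.1%) in H against NC, with a median of −0.30. Abce1, which splits ribosomes for reuse, was at 102 to 104 FPKM in NC and 55.3 to 59.6 in H, a fall of 0.84. Eif5, the GTPase activator of the scanning complex, went the other way and rose by 0.64. In HL against H 18 initiation factors rose (39.1%, against 26.7% of all tested genes) and 9 fell (19.6%, against 21.7%), among them Pabpc1 (0.48), the poly(A)-binding protein, whose own messenger RNA is a TOP messenger RNA.

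Among 15 elongation and release factors 10 fell (66.7%, against 33.0% of all tested genes) and 0 rose (against 27.1%) in H against NC. Eif5a fell most, by 0.86. Eef2, which moves the ribosome along, was at 0.00 ± 0.038 in H against NC and rose in HL by 0.23. Eef1a1, the most abundant factor here, was at 6030 to 6139 FPKM in the NC libraries, 5105 to 5649 in the H libraries and 6264 to 6555 in the HL libraries, and fell by 0.19 in H against NC. In HL against H 5 rose (33.3%, against 26.7% of all tested genes) and 3 fell (20%, against 21.7%), which is near those shares.

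The nucleolar and small nucleolar RNP proteins, which modify ribosomal RNA, had the lowest list median in H against NC, −0.80. There 18 of 19 (94.7%) were lower, against 33.0% of all tested genes. Dkc1, the pseudouridine synthase, fell by 1.36, Nop58 by 0.88 and Npm1, the abundant nucleolar chaperone, by 0.78. Most of these were not called in HL against H, where the median was 0.03. There 5 rose (26.3%, against 26.7% of all tested genes) and 3 fell (15.8%, against 21.7%). The difference between the lists was not tested. Of the assembly factors, 19 of 45 (42.2%) for the large and 27 of 51 (52.9%) for the small subunit fell in H against NC, where 33.0% of all tested genes fell. Their medians were −0.22 and −0.28. In HL against H 11 and 16 of them fell (24.4% and 31.4%, against 21.7% of all tested genes) and 4 and 6 rose (8.89% and 11.8%, against 26.7%). Of 34 genes of RNA polymerase I and of 5S rRNA transcription, 16 fell (47.1%) and 5 rose (14.7%) in H against NC, against 33.0% and 27.1% of all tested genes. In HL against H 7 moved each way (20.6%), against 26.7% higher and 21.7% lower of all tested genes.

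**Figure D5:**
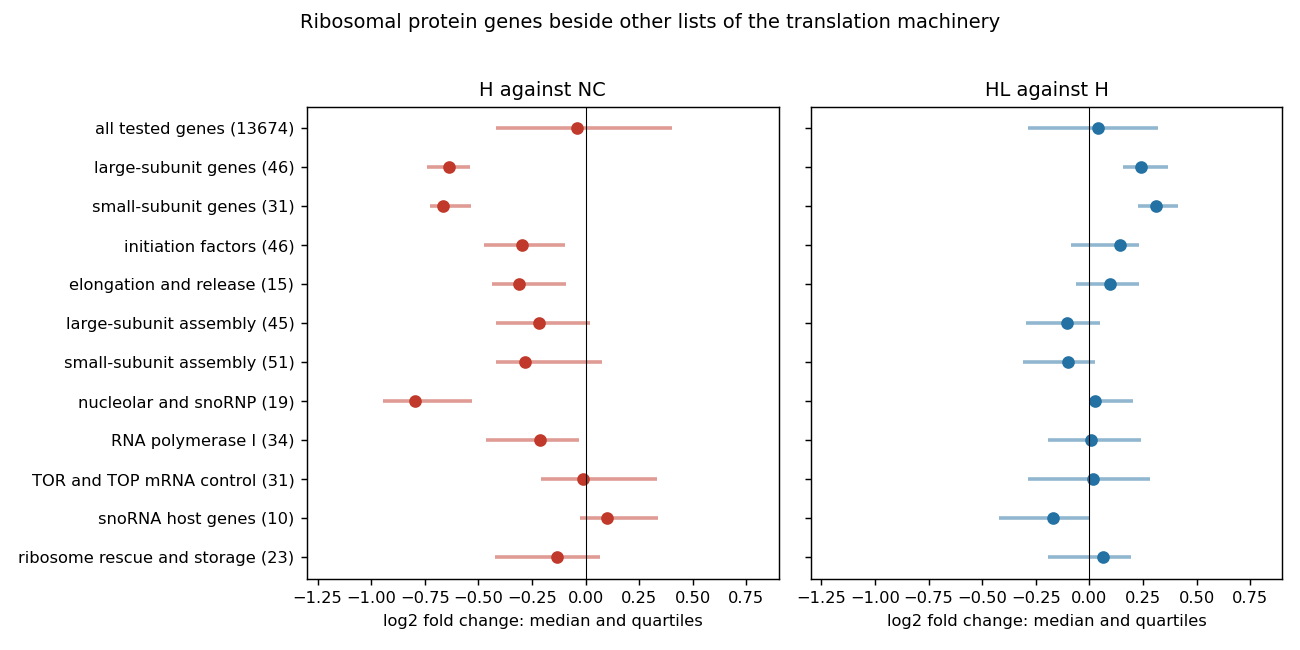
Median log2 fold change (point) and quartiles (line) of the large-subunit and small-subunit genes beside all tested genes and other lists of the translation machinery, with the number of tested genes in parentheses. In H against NC the subunit genes (−0.64 and −0.66) and the nucleolar list (−0.80) lie furthest left; in HL against H the subunit genes lie to the right (0.24 and 0.31) and the nucleolar list at 0.03.

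The genes through which mTORC1 controls TOP messenger RNAs were called at about the share of all tested genes, with 9 higher and 9 lower of 31 (29.0% each) in H against NC and a median of −0.01. Eif4ebp2, a repressor of cap-dependent initiation, fell by 0.66, and Sesn2, an inhibitor of mTORC1, rose by 0.89. Of 10 tested long non-coding RNAs that begin with a TOP tract and host small nucleolar RNAs, Snhg5 fell by 0.997, Snhg15 rose by 1.17 and Snhg3 rose by 0.39. Of 23 factors of ribosome rescue and storage 11 fell (47.8%) and 4 rose (17.4%), against 33.0% and 27.1% of all tested genes. Rbm3, a cold-inducible RNA-binding protein found with ribosomes, was at 825 to 834 FPKM in the NC libraries, 266 to 310 in the H libraries and 488 to 497 in the HL libraries, and fell by 1.52 in H against NC and rose by 0.76 in HL against H.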

How the data were processed

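C2C12 RNA was extracted with Trizol, enriched for mRNA and sequenced on an Illumina HiSeq (3 NC, 3 H and 3 HL libraries). The authors deposited FPKM per mouse Ensembl gene. The submitters' processing notes name HISAT2 2.1.0, StringTie 1.3.3b and mm39, while the methods name a human genome and the deposited table's name a different quantifier, so quantifier and build are uncertain. FPKM carry no counts. Depth was estimated from low values, of which 40.3% to 44.9% came within 0.1 of a whole fragment (17.5% to 18.5% at other trial depths), so fragments were not recovered and no count test was run.

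Symbols came from a table of Ensembl names and matched 51482 of 54307 rows. Genes with 1 FPKM or more in 3 or more libraries (13674) were fitted with limma 3.58.1 (R 4.3.3) on log2(FPKM + 0.1), with trend and robust options, all 9 libraries and group as the only term. P-values were adjusted by Benjamini-Hochberg within each comparison, and the study's further threshold was a log2 fold change beyond 1. Fold changes are on the log2(FPKM + 0.1) scale. The procedure was checked on simulated data. Copies were found with BLAST 2.17.0. Paralog ratios were compared by exact permutation (SciPy 1.17.1). Named genes were the paralogs with their parents, the stalk genes and Rpsa, 7 genes of known role (Rps6, Rpl5, Rpl11, Rps19, Rps3, Rpl10 and Rpl41), any gene past the study's thresholds, the 4 highest and 4 lowest fold changes in each comparison, the 4 highest and 4 lowest levels, and up to 3 genes of each other list. Others were named after their values were seen. The genes and lists were chosen with earlier results of these data known. Alternatives were other pseudocounts, filters, scalings, variance models, a fit of 2 groups, a replicate block, leaving out each library and, chosen after seeing the data, summing copies. Sequences are from GENCODE M21 and RefSeq. Intervals for counting error cannot be given for FPKM. Some items are not reported here.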

Additional observations from a re-analysis of the deposited data

How the results depend on the processing

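The 90 named values gave 1977 pairs of a value and an alternative setting. In 1739 of these pairs the call was the same, with the same direction where there was a call. Under TPM, 4 genes were higher and 77 lower in H against NC (median −0.44), beside 38.6% and 20.9% of all tested genes. Beyond a log2 fold change of 1, 0 were lower there. In HL against H 40 were higher and 5 lower (median 0.18), beside 18.4% and 27.6%, and the HL against NC median was −0.24. Rescaled without mitochondrial genes, 4 were higher and 77 lower in H against NC (median −0.42), beside 5596 and 2715 of the 13674 tested genes. Beyond a log2 fold change of 1, 0 were again lower. The HL against H median was 0.20. In HL against NC 51 were lower (median −0.19), beside 2243 of the 13674 tested genes. Centred on the median of tested genes, 2 were higher in H against NC, beside 3856 of the 13674 tested genes. With no filter, 0 were higher in HL against NC, beside 2319 of 54307 rows. With near-identical copies summed, an alternative chosen after seeing the data, 0 were higher in H against NC, beside 27.3% of the genes in that fit. In HL against H 1 was lower, beside 21.9%, and in HL against NC 0 were higher, beside 21.8%. Summing turned the direction in H against NC of Rpl10 (−0.20), Rpl12 (−0.86), Rpl5 (−0.46), Rps2 (−0.71) and Rps27 (−0.75), in HL against H of Rpl12 (0.35) and Rps2 (0.26), and in HL against NC of Rpl5 (−0.36), Rps2 (−0.45) and Rps27 (−0.46).

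Centring on the median of the ribosomal protein genes removes their common shift by construction. It left 27 higher (1 beyond a log2 fold change of 1), 7 lower (0 beyond 1) and a median of 0.0704 in H against NC. In HL against H it left 4 higher, 22 lower and a median of −0.065, and in HL against NC 10 higher, 9 lower and a median of 0.0301. Of all 13674 tested genes it called 10043 higher and 762 lower in H against NC. For HL against H these counts were 1124 and 6519, and for HL against NC 6722 and 881. It turned the direction in H against NC of Rpl11 (0.0069), Rpl13a (0.0701), Rpl23a (0.25), Rpl7 (0.14), Rpl7l1 (0.59), Rplp0 (0.13), Rplp2 (0.071), Rps19 (0.25), Rps20 (0.034), Rps27l (0.27), Rps3 (0.085) and Rps6 (0.29), in HL against H of Rpl11 (−0.032), Rpl23a (−0.12), Rpl29 (−0.15), Rpl36al (−0.12), Rpl41 (−0.14), Rpl5 (−0.29), Rpl7 (−0.048), Rplp0 (−0.11), Rplp2 (−0.16), Rps19 (−0.12), Rps27l (−0.29), Rps3 (−0.067), Rps6 (−0.10) and Rpsa (−0.18), and in HL against NC of Rpl12 (0.18), Rpl22 (0.15), Rpl23a (0.13), Rpl36a (0.075), Rpl7 (0.089), Rplp0 (0.027), Rps19 (0.13), Rps20 (0.17), Rps24 (0.10), Rps3 (0.018), Rps6 (0.19) and Rps9 (0.089).

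The share in NC, H and HL was 15.7%, 11.7% and 13.4% of the nuclear-encoded total, 18.6%, 13.8% and 16.003% without the 50 other genes of the highest level, and 16.9%, 12.4% and 14.1% with pseudogene rows and other ribosomal protein rows added. Leaving out 1 library at a time gave 1 to 2 higher genes in H against NC (2 without H replicate 2), 0 to 3 higher in HL against NC, 0 to 1 lower beyond a log2 fold change of 1 in HL against NC, and 51 to 66 higher in HL against H. Over all 13674 tested genes, 3300 to 3916 were then higher in H against NC. In HL against NC 2438 to 3293 were higher, and in HL against H 2979 to 4053. The causes of these changes were not tested. With the replicate number as a block, 1 gene was higher and 78 lower in H against NC, 60 and 2 in HL against H, and 2 and 77 in HL against NC. Of all 13674 tested genes, 3607 were higher and 4431 lower in H against NC with that block. For HL against H these counts were 3505 and 2852, and for HL against NC 2849 and 3583. Deviations from the group mean correlated weakly between same-numbered libraries of different groups, from −0.037 to 0.091 (median 0.022). For libraries of different number the range was −0.071 to 0.060 (median −0.011). Between NC and H the same-numbered pairs (0.057, 0.091 and 0.046) were above all others. As all values were small, the numbers were not read as a pairing. FPKM carry no counts, so counting error could not be separated from other spread.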
